A study of Arabidopsis thaliana with 15 samples.

Results

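What Rose Bengal (RB) adds to hydrogen peroxide after 2 h was measured gene by gene in roots of Arabidopsis thaliana seedlings. The 6 libraries compared were all those labelled 5 mM H2O2 with 10 µM RB for 2 h (3 libraries) and all those labelled 5 mM H2O2 for 2 h (3 libraries), out of 15 libraries in the series. Every listed gene entered, and 9986 of 14532 genes passed the filter on low counts and were tested. The seedlings were wild type of the Columbia-0 ecotype and 7 d old, and a replicate pooled the roots of 30 to 50 of them. The other 9 libraries were roots kept in water for 1 h, in 5 mM H2O2 for 1 h and in 5 mM H2O2 for 3 h, with 3 replicates each. Every treated group therefore carried H2O2, and the RB group differed from its comparison group by the dye alone, as far as the labels say. Water was labelled 1 h only, so between water and the groups at 2 h or 3 h, time and treatment differ together. One treatment field writes the dye as MRB, and the series title names Rose Bengal. Roots given RB without H2O2 were not analysed here, and the sources used here do not say what light the roots received during treatment.

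Rose Bengal is a photosensitizer: in light it passes energy to oxygen and forms singlet oxygen, a short-lived species that differs from H2O2 in its chemistry and in the genes it is known to induce in leaves. Arabidopsis draws chorismate from the shikimate pathway into tryptophan, and from tryptophan makes indole glucosinolates and the phytoalexin camalexin, defence compounds that roots also produce. The root surface carries secreted class III peroxidases, which use H2O2 to oxidise phenolic compounds in the cell wall, and the transporters and aquaporins through which ions and water enter.

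The libraries held 689372 to 6231140 counts over the whole series, and replicates a, b and c held 2456784, 1093238 and 1277436 counts in H2O2 alone and 1500459, 1705965 and 6231140 with RB. Replicate a of H2O2 alone stood apart from its group: across genes, its log2 CPM (CPM is a gene's share of a library's counts, TMM-scaled) correlated at 0.957 and 0.954 with replicates c and b of the RB group, and at 0.935 and 0.933 with the other two of its own. Its correlation with replicate a of the RB group was lower than these, at 0.929. At equal depth the correlations were 0.939 and 0.942 with RB replicates c and b, 0.933 and 0.930 within its group, and 0.923 with RB replicate a. Counts with and without replicate a of H2O2 alone are therefore given below. A list of 9 green tissue markers summed to 284 to 601 CPM in the 6 libraries, without separation of the groups. The sum of 14 light-harvesting genes, a list chosen after values were seen, did separate them. It was 708, 625 and 790.5 CPM with RB against 837, 1235 and 1281 CPM in H2O2 alone, so equal green tissue content was not shown. The summed level of the 5 genes in the list of root-wide markers was 1352, 1672 and 1866 CPM in H2O2 alone and 868, 1114 and 592 CPM with RB. The largest part of it came from the aquaporin PIP2B. The summed level of the 16 root hair genes in the table was lowest in replicate c of RB, at 17.61 CPM. It was 54.0 and 82.8 CPM in replicates a and b and 58.2 to 100 CPM in H2O2 alone, a low level for a sum. RSL2 was at 0 in all RB libraries. In the test described below, 0 of 10 tested root hair genes were called, where 2.43% of all genes were. Their log2 fold changes were above 0 for 4 and below 0 for 6.

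With RB, 243 genes (2.43% of those tested) differed from H2O2 alone, 74 of them higher (0.741%) and 169 lower (1.69%), by edgeR's quasi-likelihood test at a Benjamini-Hochberg adjusted p under 0.05. The genes that rose were led by enzymes of tryptophan and indolic defence metabolism. Those that fell included secreted peroxidases, uptake transporters, aquaporins and the vegetative storage proteins. The median log2 fold change over all genes was 0.019, the median standard error (SE) was 0.374, and 222 of the called genes changed by at least 1 on the log2 scale. The RB and H2O2 libraries did not overlap in CPM for 72 of the 74 higher and 169 of the 169 lower genes, where 8.95% of all genes were separated upwards and 10.4% downwards. The genes were called on the difference between these same libraries, so their separation follows largely from the call and adds no support. At an unadjusted p under 0.05 there were 1244 genes. The number called rose to 288 without replicate a of H2O2 alone, and was 130 without its replicate b and 92 without its replicate c. It was 149, 146 and 109 without replicates a, b and c of the RB group. In 13 refits with another setting or 1 library fewer, 55 of the 243 genes were called every time, 15 higher and 40 lower. No called gene changed sign where it was tested. The refits reuse the same counts and the groups of called genes rarely overlapped, so the constant sign follows largely from the call and adds no support.

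**Figure D1:**
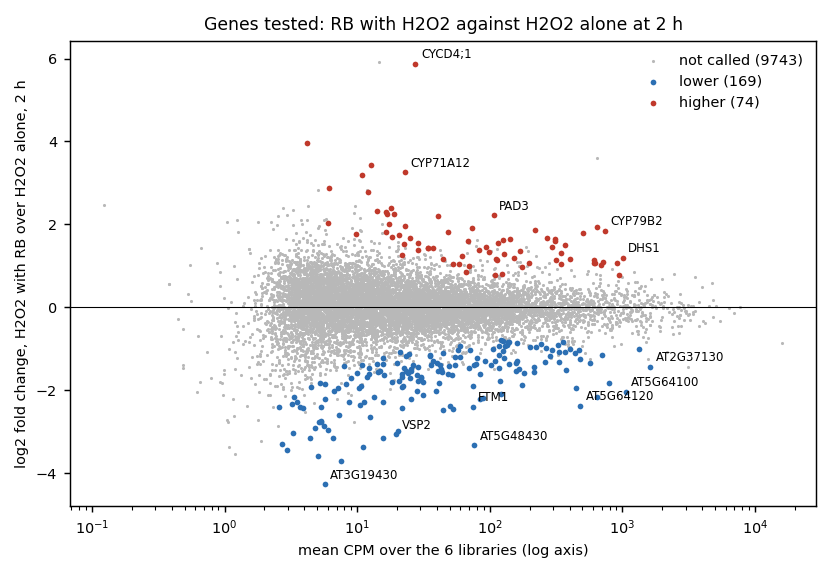
Log2 fold change of each tested gene (H2O2 with RB over H2O2 alone, 2 h) against its mean CPM over the 6 libraries on a log axis. Red points are the 74 genes called higher, blue points the 169 called lower, and grey points were not called; called genes lie on both sides at low and at high mean level.

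Genes of tryptophan synthesis and indolic defence rose with RB. Of 19 tested genes in this list, 10 were called higher and 0 lower, where 0.741% of all genes were higher. The list's median log2 fold change was 1.08, beside 0.019 over all genes tested. The called genes were ASA1, AT2G04400, TSA1 (AT3G54640), TSB1 and TSB2 on the way to tryptophan and CYP79B2, CYP79B3, CYP83B1, CYP71A12 and PAD3 beyond it. Of the 9 that were not called, 6 had a log2 fold change above 0. Leaving out replicates a, b and c of H2O2 alone in turn left 9, 6 and 4 called members, and leaving out those of the RB group left 9, 5 and 4. CYP79B2, CYP71A12 and PAD3 were called in every refit.

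CYP79B2 turns tryptophan into indole-3-acetaldoxime, from which both camalexin and the indole glucosinolates derive. It stood at 279.9, 395 and 286 CPM in replicates a, b and c of H2O2 alone and at 1367, 1099 and 992 CPM with RB. All RB libraries lay far above all others, and the log2 fold change was 1.85 (SE 0.236, adjusted p = 0.000444). Its homologue CYP79B3 had 77.2, 111 and 101 CPM in H2O2 alone and 175, 260 and 299 CPM with RB, again without overlap, with a log2 fold change of 1.36 (adjusted p = 0.00910, SE 0.273). CYP83B1, which commits the aldoxime to indole glucosinolates, rose from 444.5, 430 and 505 CPM to 739, 1102 and 950.5 CPM, a log2 fold change of 1.02 (adjusted p = 0.0115, SE 0.2105).

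The camalexin branch moved the most. CYP71A12, a cytochrome P450 that dehydrates the aldoxime to indole-3-acetonitrile, was at 5.70, 3.92 and 2.56 CPM in H2O2 alone and at 36.25, 49.2 and 40.9 CPM with RB. These levels rest on 15, 4 and 3 counts against 53, 85 and 260, and the log2 fold change was 3.26 (SE 0.464, adjusted p = 0.000656). PAD3, which closes the camalexin pathway, had 65.8, 21.6 and 22.2 CPM in H2O2 alone and 141.6, 203 and 190 CPM with RB, with a log2 fold change of 2.22 (adjusted p = 0.00287, SE 0.374). Its highest library without RB was replicate a, the one that resembled replicates b and c of the RB group, and it still lay below all RB libraries. AT1G26380, a berberine-bridge-like oxidase known from the related indole cyanogenic pathway, went from 3.42, 1.96 and 0 CPM to 22.6, 31.8 and 16.2 CPM (log2 fold change 3.42, SE 0.582, adjusted p = 0.00296). Its levels without RB were near 0, so the size of the change is uncertain. Estimates ran from 2.97 to 4.56 over 13 refits, and the call was lost in libraries thinned to equal depth.

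On the tryptophan side, ASA1 encodes the anthranilate synthase subunit that takes chorismate into the pathway. It was at 141, 232 and 216 CPM in H2O2 alone and at 389, 534 and 537 CPM with RB, with a log2 fold change of 1.32 (adjusted p = 0.0148, SE 0.281). TSA1 (AT3G54640), the tryptophan synthase alpha subunit, was at 422, 466 and 475 CPM and rose to 732, 944 and 1240 CPM (log2 fold change 1.099, SE 0.250, adjusted p = 0.0226). TSB1, the beta subunit and one of the most abundant called genes, went from 673, 637 and 453 CPM to 956, 1302 and 1460 CPM (log2 fold change 1.08, SE 0.2145, adjusted p = 0.00864). Its near-copy TSB2 rose by a similar 1.05 (SE 0.245, adjusted p = 0.0258), and reads of such pairs could be split between them in counting. AT2G04400, annotated in the list as indole-3-glycerol phosphate synthase, had a log2 fold change of 2.02 (adjusted p = 0.0441, SE 0.518) at no more than 14.4 CPM in any of these libraries. The regulator MYB51, at a log2 fold change of 1.01 (adjusted p = 0.104, SE 0.306), and MYB34, at -0.10 (SE 0.364, adjusted p = 0.960), did not pass the test.

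**Figure D2:**
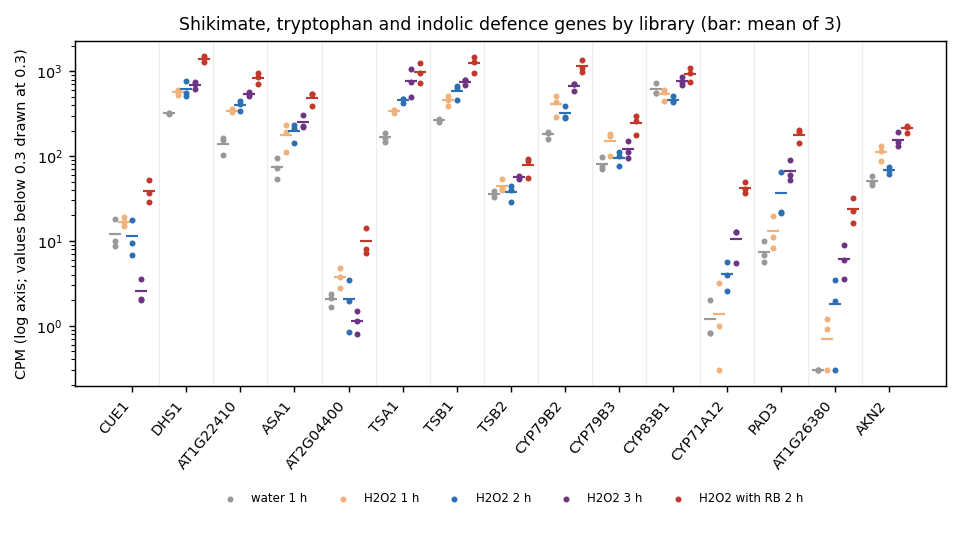
CPM of 15 genes of the shikimate, tryptophan, indolic defence and sulfate activation steps in each library of the 5 groups, on a log axis; dots are the 3 libraries and bars their mean. For CYP79B2 the RB libraries (red) lie between 992 and 1367 CPM and every H2O2 2 h library (blue) at or below 395 CPM.

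The steps that feed these pathways were examined with lists chosen after values were seen. Of 9 tested genes between plastid carbon import and chorismate, 3 were called higher and 0 lower, where 0.741% of all genes were higher. All 9 had a log2 fold change above 0 (median 0.763), as did 5156 of all 9986 genes. DHS1, which catalyses the entry reaction of the shikimate pathway, was at 557, 768 and 515 CPM in H2O2 alone and at 1291, 1417 and 1499 CPM with RB. Its RB libraries were close to each other and well above the others, with a log2 fold change of 1.19 (adjusted p = 0.00225, SE 0.195). AT1G22410, of the same enzyme class, rose from 451, 410 and 343 CPM to 707, 857 and 954 CPM (log2 fold change 1.06, SE 0.209, adjusted p = 0.00785). CUE1, the plastid phosphoenolpyruvate translocator, had 17.9, 6.86 and 9.40 CPM in H2O2 alone and 52.0, 36.5 and 28.4 CPM with RB (log2 fold change 1.66, SE 0.380, adjusted p = 0.0231). Leaving out replicates a, b and c of H2O2 alone gave 4, 2 and 1 called members, and leaving out any 1 RB library gave 2.

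Glucosinolate synthesis also consumes activated sulfate, and 2 of 5 tested genes of sulfate activation were higher, where 0.741% of all genes were. AKN2, an APS kinase that makes the sulfate donor for glucosinolates, was at 61.6, 68.6 and 75.2 CPM in H2O2 alone and at 189, 223 and 229 CPM with RB. The groups were widely separated, at a log2 fold change of 1.65 (adjusted p = 0.000538, SE 0.222), and the gene was called in all 13 refits. APS3, an ATP sulfurylase, had a log2 fold change of 1.19 (adjusted p = 0.0474, SE 0.309) and was called in 6 of 13 refits, with estimates from 0.917 to 1.64. It lost its call without replicate b or c of H2O2 alone and without replicate a or b of RB. Across 15 tested genes from CYP79B2 to the modified indole glucosinolates, 3 were called higher, 14 had a log2 fold change above 0, and the median was 1.07. This list was also chosen after values were seen. It shares CYP79B2 with the tryptophan and indolic defence list, so its count is not separate support. The count was 6 with DESeq2, 5, 2 and 2 without replicates a, b and c of H2O2 alone, and 3, 2 and 2 without those of RB.

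Phenylpropanoid synthesis, the other large outlet of the shikimate pathway, had 4 of 22 tested genes called higher and 0 lower, where 0.741% of all genes were higher. The median log2 fold change was 0.464. PAL1, phenylalanine ammonia-lyase, was at 736, 696 and 660 CPM in H2O2 alone and at 1001, 1288 and 1277 CPM with RB. The change was the smallest of all called, 0.77 on the log2 scale (SE 0.1905, adjusted p = 0.0371), yet the groups did not overlap. PAL4 rose by 1.39 (SE 0.295, adjusted p = 0.0136), HCT by 1.13 (SE 0.291, adjusted p = 0.0441) and CCR2 by 1.17 (SE 0.262, adjusted p = 0.0205), all on the log2 scale. This count is sensitive to single libraries: without replicates a, b and c of H2O2 alone it was 6, 1 and 0, and without those of RB it was 2, 0 and 2. LAC1, a laccase and so an enzyme that can oxidise phenolic units in the wall, was called in every refit and went from 145, 172 and 137.5 CPM to 359, 519 and 538 CPM (log2 fold change 1.64, SE 0.277, adjusted p = 0.00287).

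Detoxification genes gave 3 of 20 tested members higher and 0 lower (median log2 fold change 0.0645), and the glutathione transferases 1 of 24 (median 0.447). Over all genes 0.741% were higher, and 1 call in a list of 24 is no result about the transferases as a family. GSTU12, the transferase called, rose from 254.8, 222 and 191 CPM to 728.5, 885 and 722 CPM, a log2 fold change of 1.80 (adjusted p = 0.00155, SE 0.281). CYP710A1, which makes stigmasterol from sitosterol, had 104, 109.8 and 70.05 CPM in H2O2 alone and 334.5, 379 and 326.5 CPM with RB (log2 fold change 1.87, SE 0.301, adjusted p = 0.00195). Both were called in every refit, with RB libraries that were tightly grouped. NIT4, a nitrilase that detoxifies beta-cyanoalanine, had a log2 fold change of 1.82 (adjusted p = 0.00801, SE 0.359), and DTX1, a multidrug efflux carrier, 2.32 (SE 0.556, adjusted p = 0.0300). Without replicates a, b and c of H2O2 alone, 3, 1 and 1 members of the detoxification list, whose called genes were CYP710A1, NIT4 and DTX1, were called, and without those of RB, 3, 2 and 1.

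Among the genes with the largest rises outside these pathways, AT3G22620 was the most abundant. It belongs to the bifunctional inhibitor and lipid-transfer protein family, and had 229, 338 and 228 CPM in H2O2 alone and 899.5, 1424 and 712 CPM with RB. The log2 fold change was 1.93 (SE 0.290, adjusted p = 0.00101), and the level in water was 180 ± 43.6 CPM (SD, n = 3), close to that in H2O2 alone. AT2G26380, a leucine-rich repeat protein gene, went from 16.4, 11.8 and 14.5 CPM to 63.6, 78.7 and 58.8 CPM (log2 fold change 2.205, SE 0.294, adjusted p = 0.000538). PMAT2, an acyltransferase that malonylates phenolic glucosides, changed by 1.95 (SE 0.352, adjusted p = 0.00451), the E1-E2 type ATPase gene AT3G63380 by 1.90 (SE 0.344, adjusted p = 0.00457) and the transcription factor gene ERF14 by 2.00 (SE 0.421, adjusted p = 0.0131). Of these, AT3G22620, AT2G26380, PMAT2 and AT3G63380 were called in every refit. The remaining genes with the largest rises were CXE17, BGAL8, AT3G16530, AT1G03700 and AT2G36770, with log2 fold changes of 2.89, 2.79, 2.396, 2.298 and 2.25.

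The singlet oxygen and antioxidant lists held no called gene, which is close to the 2.43% called over all genes in lists of this size and so is no result about these genes. None of 19 tested genes known from the singlet oxygen response of leaves was called (0 higher, 0 lower), and their median log2 fold change was -0.0637. At an unadjusted p under 0.05, 2 of them were higher and 1 was lower, and DESeq2 called 0 higher and 1 lower. With only the groups compared in the fit, 1 was called higher and 1 lower. BAP1, a membrane-associated defence regulator often used as a singlet oxygen marker, was at 356, 374 and 632 CPM in H2O2 alone and at 160, 226 and 223 CPM with RB. The groups did not overlap, and the direction was downward at -1.16 on the log2 scale (SE 0.317, adjusted p = 0.06255), with a call in 6 of 13 refits. AT3G28580, an AAA-ATPase used in the same way, had a log2 fold change of 0.55 (adjusted p = 0.519, SE 0.320), and SIB1 of 0.12 (SE 0.348, adjusted p = 0.948).

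Of 29 tested antioxidant genes, 0 were called by edgeR (median log2 fold change 0.0481). Unadjusted p-values were under 0.05 for 4 higher and 3 lower members, DESeq2 called 0, and leaving out replicate a of H2O2 alone gave 1 called higher. The cytosolic ascorbate peroxidase APX1, at 1258 ± 337 CPM in H2O2 alone and 2032 ± 41.4 CPM with RB (SD, n = 3), had a log2 fold change of 0.69 (adjusted p = 0.221, SE 0.255). APX2 was at -0.74 (SE 0.302, adjusted p = 0.288) and the catalase gene CAT2 at -0.29 (SE 0.249, adjusted p = 0.735). Of 36 heat shock genes, 1 was called higher and 0 lower, close to the 2.43% called over all genes and so no result about the family. The gene was Hsp70-2, a cytosolic chaperone with near-identical relatives. Hsp70-2 went from 62.0, 65.7 and 77.7 CPM to 134, 143 and 182 CPM (log2 fold change 1.17, SE 0.238, adjusted p = 0.0102). Its call was lost without replicate b of H2O2 alone or replicate c of RB. The chaperone HSP101 was at 0.0016 on the log2 scale (SE 0.236, adjusted p = 0.999).

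**Figure D3:**
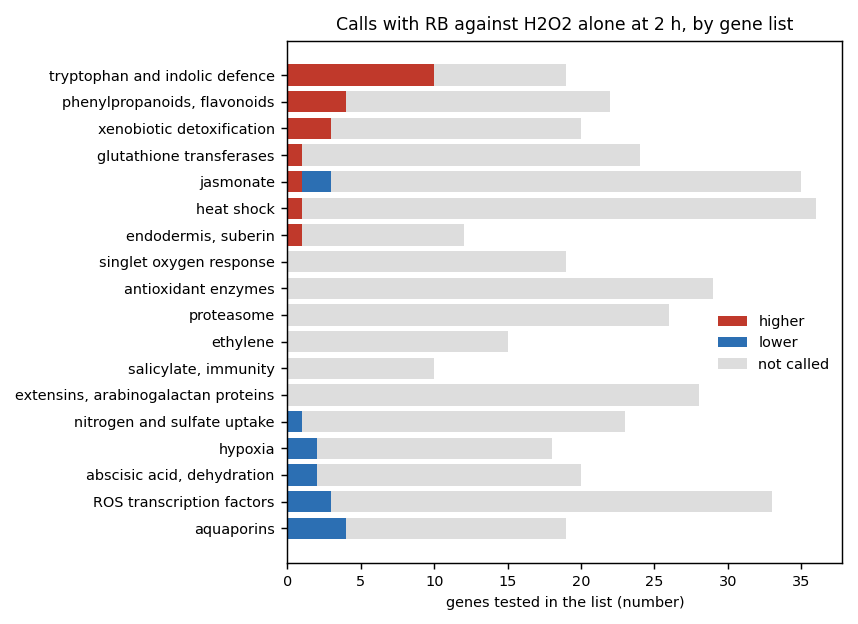
Number of tested genes called higher (red), lower (blue) or not called (grey) with RB against H2O2 alone in 18 gene lists. Tryptophan and indolic defence has 10 of 19 higher, aquaporins 4 of 19 lower, and the singlet oxygen and antioxidant lists have none called.

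Class III peroxidase genes were prominent among those that fell. Of 43 tested members of the family, taken from RefSeq product names after values were seen, 7 were lower and 1 was higher. These are 16.3% and 2.33%, beside 1.69% lower and 0.741% higher over all genes. The median log2 fold change of -0.321 was not stable: it was -0.0026 with DESeq2, -0.0585 without the filter on low counts, and -0.0765, -0.204 and -0.143 without replicates a, b and c of H2O2 alone, or -0.237, -0.515 and -0.142 without those of RB. AT5G64100 was at 1805, 1635 and 1673 CPM in H2O2 alone and at 473, 559 and 220 CPM with RB. All RB libraries were several times below all others, and replicate c was the lowest, at a log2 fold change of -2.03 (adjusted p = 0.00167, SE 0.320). The neighbouring gene AT5G64120 had 836, 755 and 823.5 CPM against 151, 209 and 107 CPM (log2 fold change -2.38, SE 0.287, adjusted p = 0.000413), and AT3G01190 had 190.5, 179 and 217 CPM against 54.0, 59.6 and 26.7 CPM (log2 fold change -2.10, SE 0.2745, adjusted p = 0.000538).

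The most abundant gene called, AT2G37130, is also a peroxidase. It was at 1792, 2528 and 2764 CPM in H2O2 alone and at 968, 1156 and 505 CPM with RB, a log2 fold change of -1.43 (adjusted p = 0.0243, SE 0.331). Its level in water was higher still, 7793 ± 2481 CPM (SD, n = 3), whereas AT5G64100, at 1966 ± 536 CPM, and AT5G64120, at 797 ± 99.5 CPM, were about as high in water as in H2O2 alone. AT5G17820, AT2G18980 and PER4 fell by 1.78, 1.70 and 1.36 on the log2 scale, and AT1G71695 rose by 1.16. PER4 was called in only 3 of 13 refits and lost its call without any 1 library other than replicate b of RB, and AT1G71695 was called in 5 of 13 and lost its call without any 1 of the 6 libraries. AT5G64100, AT5G64120, AT3G01190 and AT5G17820 were called in all refits. Without replicates a, b and c of H2O2 alone, 7, 5 and 5 peroxidase genes were lower, and without those of RB, 5, 7 and 4; AT2G37130 lost its call without replicate b or c of H2O2 alone or replicate a or c of RB.

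Single genes for nutrient uptake fell, without a common direction over uptake genes; those named here other than COPT2 and AMT1;3 were chosen after their values were seen. Of 9 tested zinc and copper transporter genes, a list also chosen then, 2 were lower (ZIP2 and COPT2), 4 had a log2 fold change above 0, and the median was -0.0234. PHT1;1, a main phosphate uptake transporter of the root whose close copies may share its reads, was at 532, 604 and 530.5 CPM in H2O2 alone and at 228, 261 and 102 CPM with RB (log2 fold change -1.51, SE 0.293, adjusted p = 0.00770). PHT1;4, of the same family, had 54.75, 65.7 and 68.3 CPM against 15.05, 24.3 and 9.12 CPM (log2 fold change -2.03, SE 0.338, adjusted p = 0.00272). Both were also lower after H2O2 alone than in water, where PHT1;1 was at 1318 ± 248 CPM and PHT1;4 at 141 ± 14.1 CPM (SD, n = 3). The zinc transporter ZIP2 went from 204, 301 and 323 CPM to 82.8, 86.3 and 58.9 CPM (log2 fold change -1.87, SE 0.297, adjusted p = 0.00180). COPT2, a copper uptake protein, had 108, 89.2 and 68.3 CPM against 21.2, 22.6 and 8.17 CPM (log2 fold change -2.46, SE 0.335, adjusted p = 0.000574). Neither ZIP2, at 292 ± 72.6 CPM in water, nor COPT2, at 136 ± 12.4 CPM, had a level in any other group as low as with RB.

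STP1, a proton-coupled hexose carrier, had nearly equal levels in the RB libraries. It was at 670, 891 and 886 CPM in H2O2 alone and at 319, 325 and 324 CPM with RB, a log2 fold change of -1.34 (adjusted p = 0.00303, SE 0.229). The ammonium transporter AMT1;3 fell by 1.62 on the log2 scale (SE 0.365, adjusted p = 0.0216), a call it lost without replicate c of H2O2 alone or replicate a or c of RB. It was the only called gene of 23 tested in the list for nitrogen and sulfate uptake, whose median was 0.197. With 2.43% called over all genes, 1 call in a list of this size is no result about these genes as a set. PHT1;1, PHT1;4, ZIP2, COPT2 and STP1 were called in every refit.

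Of 19 tested aquaporin genes, 4 were lower and 0 higher, 16 had a log2 fold change below 0, and the median was -0.480. Over all 9986 genes, 1.69% were called lower, and 4830 had a log2 fold change below 0. PIP2;4, a plasma membrane water channel, was at 79.1, 76.5 and 76.9 CPM in H2O2 alone and at 24.6, 37.05 and 15.25 CPM with RB (log2 fold change -1.64, SE 0.292, adjusted p = 0.00415). TIP4;1, a channel of the vacuolar membrane, had 56.65, 62.75 and 71.8 CPM against 23.9, 22.6 and 10.06 CPM (log2 fold change -1.83, SE 0.345, adjusted p = 0.00666). TIP2;3 fell by 1.17 (SE 0.297, adjusted p = 0.0428) and RD28, the aquaporin PIP2;3, by 0.96 (SE 0.233, adjusted p = 0.0331) on the log2 scale. The much more abundant PIP2B, at 1139 CPM in H2O2 alone and 595 CPM with RB on average, has a coding sequence close to that of RD28 and did not pass the test at -0.94 (SE 0.280, adjusted p = 0.0959). Leaving out replicates a, b and c of H2O2 alone left 4, 2 and 2 called aquaporins, and leaving out those of RB left 2, 4 and 1.

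The transporter, aquaporin and peroxidase genes fell in the same libraries in which the summed level of the 5 root-wide genes was lower (592 to 1114 CPM with RB against 1352 to 1866 CPM), and 2 of those 5 genes, PIP2B and TIP2;3, are aquaporins. Replicate c of RB had the lowest value of the group for AT5G64100, PHT1;1, COPT2 and PIP2;4 and for the root hair and root-wide sums. The part of these sums in the results was not tested. In whole roots, fewer cells of a type and less RNA per cell cannot be told apart.

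**Figure D4:**
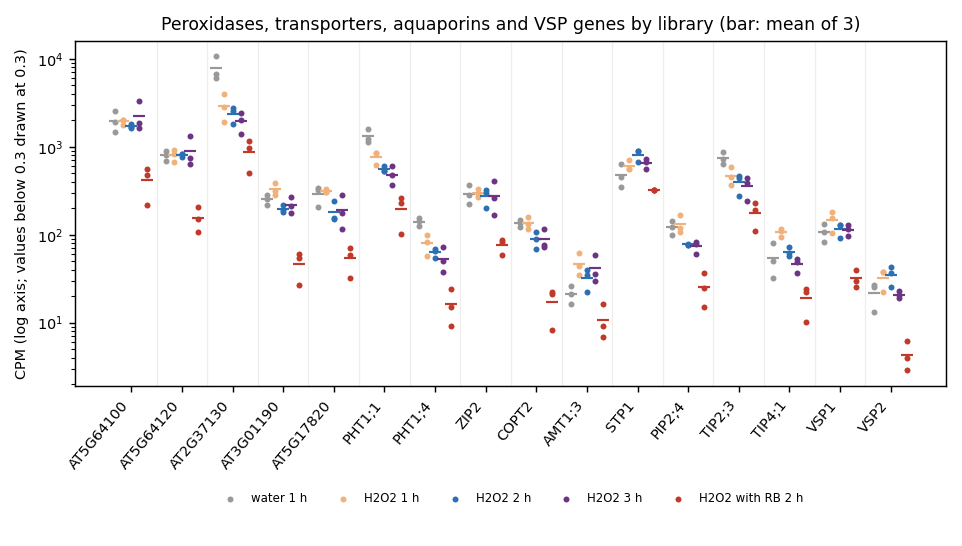
CPM of 16 genes called lower with RB in each library of the 5 groups, on a log axis; dots are the 3 libraries and bars their mean. With RB (red), AT5G64120 lies between 107 and 209 CPM, and its H2O2 2 h libraries (blue) between 755 and 836 CPM.

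The vegetative storage proteins, whose genes are classic jasmonate targets, gave some of the clearest falls. VSP2 was at 36.9, 43.1 and 25.6 CPM in H2O2 alone and at 6.16, 2.90 and 3.93 CPM with RB (log2 fold change -3.06, SE 0.373, adjusted p = 0.000413). VSP1 had 129, 92.2 and 129 CPM against 30.1, 39.95 and 25.5 CPM (log2 fold change -1.90, SE 0.269, adjusted p = 0.000656). Both were called in every refit, and in every other group their means were above those with RB. In the jasmonate list the direction differed between members: of 35 tested genes, these 2 were lower, the synthesis gene AOC1 was higher (log2 fold change 1.55, SE 0.387, adjusted p = 0.0386), and the median was 0.276. AOC1 lost its call when any 1 of the 6 libraries was left out.

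Some genes that were much higher after 2 h of H2O2 alone than in water at 1 h were lower with RB. Both differences use the same H2O2 2 h libraries, so a high level there by accident would enlarge both. FTM1, a stearoyl-acyl carrier protein desaturase also counted among hypoxia-induced genes, was at 151, 82.4 and 141 CPM in H2O2 alone and at 26.7, 19.1 and 25.5 CPM with RB (log2 fold change -2.39, SE 0.339, adjusted p = 0.000656). In water it was at 5.50 ± 3.04 CPM (SD, n = 3). Set side by side, with H2O2 at 2 h against water calling 13.9% of genes (9.21% higher, 4.73% lower) and RB with H2O2 against water 21.2% (11.6% higher, 9.62% lower), FTM1 had log2 fold changes over water of 4.495 and 2.103, and both contrasts share the water libraries. ADH1, alcohol dehydrogenase, had 156, 55.9 and 118 CPM against 45.15, 36.5 and 45.7 CPM, with 10.09 ± 4.88 CPM in water. Its log2 fold change of -1.39 (SE 0.347, adjusted p = 0.0388) lost the call without replicate a or c of H2O2 alone and without any 1 RB library, with estimates of -1.70 to -1.06 over the refits. FTM1 and ADH1 were the 2 of 18 tested hypoxia genes called, both lower, where 1.69% of all genes were lower. The median of that list was -0.0514.

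Among 33 tested transcription factor genes tied to reactive oxygen, 3 were lower (9.09%, beside 1.69% over all genes) and 0 higher. The median log2 fold change was -0.143. RRTF1 (ERF109), a redox-responsive factor, was at 148, 123 and 175 CPM in H2O2 alone and at 38.3, 73.5 and 57.7 CPM with RB, beside 10.3 ± 1.77 CPM in water (SD, n = 3). Its log2 fold change was -1.39 (SE 0.2945, adjusted p = 0.0136), and ERF104, an ethylene response factor, was at -1.03 (SE 0.225, adjusted p = 0.0169). The C-repeat binding factor CBF2, known from cold acclimation, fell by 1.38 (SE 0.363, adjusted p = 0.0497) and its tandem copy CBF1 by 2.60 (SE 0.475, adjusted p = 0.00496). The count of 3 became 2, 2 and 0 without replicates a, b and c of H2O2 alone, and 0, 3 and 0 without those of RB. CBF2 lost its call without any 1 of the 6 libraries, so the 3 genes without replicate b of RB were not the same 3, and RRTF1 and ERF104 lost theirs without replicate c of H2O2 alone or replicate a or c of RB. The other markers of oxidative stress named for inspection, RHL41 (ZAT12), WRKY33 and WRKY40, were at log2 fold changes of -0.56, 0.16 and -0.06 and did not pass the test (adjusted p = 0.504, 0.840 and 0.953).

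Of 20 tested genes of abscisic acid and dehydration responses, 2 were lower (10.0%, beside 1.69% over all genes) and the median was -0.340. KIN1, a cold- and dehydration-induced protein, was at 774, 947 and 1171 CPM in H2O2 alone and at 378, 446 and 487 CPM with RB (log2 fold change -1.14, SE 0.296, adjusted p = 0.0463). HAB1, a phosphatase that restrains abscisic acid signalling, had a log2 fold change of -1.23 (adjusted p = 0.0479, SE 0.320) and was called in 3 of 13 refits. KIN1 lost its call without replicate b or c of H2O2 alone and without any 1 RB library.

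Among genes with a mean of at least 10 CPM in a group, the largest falls were at low level. AT3G19430 and the receptor-kinase-like gene AT3G46270 had 21, 15 and 12 counts and 36, 18 and 12 counts in H2O2 alone, against 0, 1 and 4 counts and 0, 5 and 4 counts with RB, so their fitted values rest on few molecules. AT5G48430, an aspartyl protease, was measured at higher level and fell nearly as far. It was at 119.8, 167 and 129 CPM in H2O2 alone and at 15.05, 13.9 and 12.9 CPM with RB, a log2 fold change of -3.32 (adjusted p = 0.000538, SE 0.444), with 29.5 ± 22.8 CPM in water (SD, n = 3). PDF1.4, a defensin-like gene, had a lowest level of 39.5 CPM in H2O2 alone, and all its RB libraries lay below that (log2 fold change -2.47, SE 0.440, adjusted p = 0.00423). Both kept their call in all refits. The remaining genes of this group were LAC7, AT1G64500, AT2G33850, AT4G25250, AT3G56290, AT1G51860 and AT4G40070, with log2 fold changes from -3.36 to -2.42. AT4G11320, a papain-type cysteine protease, was the other abundant gene called lower, at 1391, 1776 and 2178 CPM against 903, 1094 and 646 CPM (log2 fold change -1.02, SE 0.240, adjusted p = 0.0274), a call lost without replicate b or c of H2O2 alone or replicate a or c of RB.

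Whether genes that differ with RB also change in H2O2 alone was asked in comparisons that share no library with the RB comparison. At 3 h of H2O2 alone, 30.5% of the genes tested differed from water at 1 h, with 16.2% higher and 14.4% lower. Time and H2O2 differ together in this contrast and cannot be told apart. Of the 74 genes higher with RB, 47 (63.5%) were higher at 3 h of H2O2 and 2 were lower. Of the 169 genes lower with RB, 46 (27.2%) were higher at 3 h, 18 (10.7%) were lower and 105 were not called. Between 3 h and 1 h of H2O2, which raised 6.91% and lowered 6.94% of genes, 22 of the 74 (29.7%) rose and 3 fell, and 20 of the 169 (11.8%) rose and 16 (9.47%) fell. The mean with RB was above the means of all 4 other groups for 73 of the 74 higher genes, beside 21.6% of all genes. It was below all of them for 150 of the 169 lower genes (88.8%), beside 20.8% of all genes, and comparison with H2O2 at 2 h is part of both counts by construction.

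Single genes show how these patterns look. GSTU12 was at 13.2 ± 7.20 CPM in water, 106 ± 13.9 CPM at 1 h of H2O2 and 375 ± 113 CPM at 3 h (SD, n = 3), still below its lowest RB library at 2 h. PAD3 was at 7.41 ± 2.19, 13.0 ± 5.87 and 66.8 ± 19.4 CPM in the same groups. AT3G22620 and CUE1 behaved otherwise: AT3G22620 was at 204 ± 30.7 CPM at 3 h of H2O2, near its level in water, and CUE1 was at 2.55 ± 0.906 CPM at 3 h against 12.2 ± 5.06 CPM in water. On the lower side, AT2G36690, a 2-oxoglutarate-dependent oxygenase named after its values were seen, was at 19.6 ± 2.81 CPM in water, 85.5 ± 15.9 CPM at 1 h and 110 ± 46.2 CPM at 3 h of H2O2. With RB its libraries held 11.6, 19.1 and 17.3 CPM, about the level in water, against 81.0, 77.5 and 96.5 CPM in H2O2 alone.

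**Figure D5:**
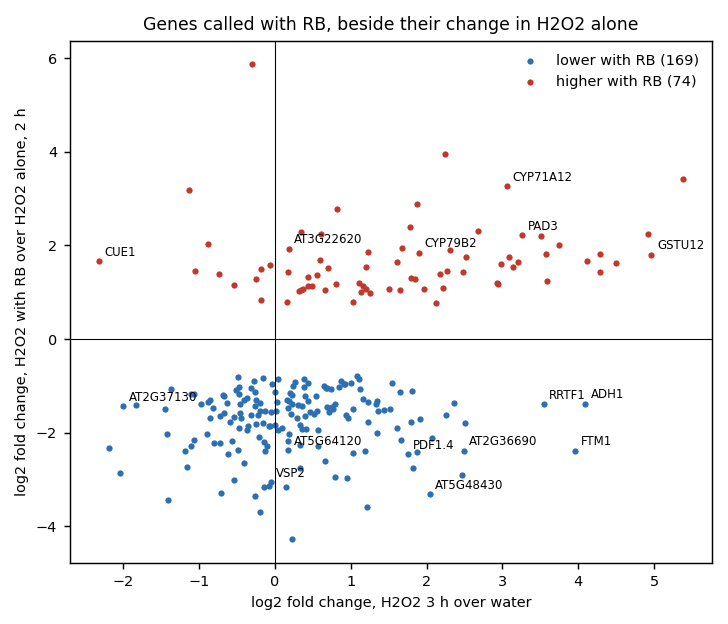
Log2 fold change with RB over H2O2 alone at 2 h (vertical) against log2 fold change of H2O2 at 3 h over water at 1 h (horizontal) for the 243 genes called with RB. The axes share no library, and time and H2O2 differ together on the horizontal axis. Of the 74 red points, 47 were called higher at 3 h of H2O2, and the 169 blue points spread over both sides of 0 with 46 called higher and 18 lower.

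A few calls rested mainly on 1 library, and the genes named here were chosen after their values were seen. CYCD4;1, a cyclin gene with the largest fitted change of all called genes, was at 140, 0 and 22.0 CPM with RB and at 0.380, 0 and 2.56 CPM in H2O2 alone, so its groups overlapped. It was called in 5 of the 11 refits in which it was tested and lost the call without replicate a of RB or any 1 library of H2O2 alone. The light-harvesting genes LHB1B1 and CAB3, members of a family with near-identical copies, were at 4.104, 12.7 and 41.2 CPM and 7.52, 22.0 and 52.3 CPM with RB, highest in replicate c. Both lost the call without that library, without replicate a, b or c of H2O2 alone, and CAB3 also without replicate b of RB. RBCS1A, a marker of green tissue, was at 203 CPM in the same library against 35.6 and 70.05 CPM in the other RB libraries, and its part in these values was not tested. The 14 genes of that light-harvesting family together summed to 708, 625 and 790.5 CPM with RB against 837, 1235 and 1281 CPM in H2O2 alone. Their sum was thus lower in all RB libraries, opposite to LHB1B1 and CAB3.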

How the data were processed

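Root RNA was sequenced by MARS-seq, a bulk method reading only transcript 3' ends with molecular identifiers, per the labels' protocols. Alignment with STAR 2.4.2a and the use of HTSeq, DESeq2, cutadapt and bcl2fastq are recorded in the submitters' processing notes. The sources used here name no genome build, annotation, strand setting or treatment of molecular identifiers, so near-identical or overlapping genes may share reads. The values used were the authors' deposited raw counts per gene. The 30 deposited per-sample columns of normalized or transformed values were not used. The authors' deposited log2 fold changes, p-values and adjusted p-values were only set beside the results: in the authors' deposited table, 285 of 14532 genes (1.96%) had an adjusted p under 0.05, 85 higher and 200 lower with RB, and 235 were shared with the calls made here (96.7% of these, 82.5% of theirs).

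Counts of all 15 libraries were fitted in 1 model with edgeR 4.0.16 in R 4.3.3: TMM factors, filterByExpr by group (minimum count 10, minimum total 15), robust quasi-likelihood fit with 10 residual degrees of freedom, two-sided test, Benjamini-Hochberg adjustment over 9986 genes. A call is an adjusted p under 0.05. CPM values are TMM-scaled, without length correction, as the 3' tags need none. The SE is the size of the log2 fold change over the root of F. The common biological coefficient of variation was 0.272. The scripts were tested on simulated data. Replicate letters are not stated to mark pairs, and the libraries were fitted as unpaired. Named genes were the 15 largest changes in each direction (called, groups not overlapping, mean of at least 10 CPM in a group), called list members, a list of markers, and the 6 most abundant called genes; others are said to be chosen after their values were seen, as were AT1G22410, CUE1, AKN2, APS3, LAC1, MYB34, MYB51 and PIP2B. Setting 3 h of H2O2 against water was also added then. Members and lists were chosen with earlier results of these data known. Lists are described by counts and medians, with no set test. Symbols come from RefSeq, which matched 14497 of 14532 genes. Replicate libraries differed beyond sampling noise (chi-square per degree of freedom 6.595 to 14.86).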

Additional observations from a re-analysis of the deposited data

How the results depend on the processing

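In the 13 refits, none of the 243 called genes changed sign where it was tested, which follows largely from the call on the same counts. Genes near 0 that were not called, such as HSP101, SIB1 and WRKY40, did change sign. Of 243 calls with RB, 74 higher and 169 lower, the totals with other normalization, filter, tool or fit were 230 to 331, and DESeq2 called 331, of which 236 were shared. With 1 library left out they ran from 92 to 288 (21 to 98 higher, 61 to 190 lower). An adjusted p under 0.01 left 94 (27 higher, 67 lower). Thinning to the smallest library gave 172 calls (61 higher, 111 lower), of which 147 were shared. With the replicate block, 230 genes were called, 215 of them shared. Same-letter deviations correlated at -0.204, -0.068 and -0.0604, so no pairing by letter was seen. With so few libraries in a group, these values cannot exclude it.

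H2O2 at 3 h against 1 h gave 1383 calls, 848 with only its own groups in the fit, 787 after thinning and 574 at an adjusted p under 0.01. H2O2 at 2 h against water gave 1392 calls, 705 at 0.01, and 893 to 1349 with 1 library left out. RB against water gave 2120 calls and 1280 at 0.01. H2O2 at 3 h against water, chosen after seeing the data, gave 3048 calls, 1821 after thinning and 1789 at 0.01. The smallest library compared held 1093238 counts, so small changes of genes near 10 CPM were not detectable at this depth.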

Other observations

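Several families not described above had more than 1 called member. They were grouped by RefSeq product name after values were seen, and over all genes 0.741% were higher and 1.69% lower. Of 9 tested genes for Cysteine/Histidine-rich C1 domain proteins, 4 were lower with RB and 0 higher (median log2 fold change -1.37), namely AT2G44380, AT2G44370, AT5G43520 and AT2G27660. Of 28 genes for pectin methylesterase inhibitor-type proteins, which act on cell wall pectin, 4 were lower and 0 higher (median -0.652). The UDP-glycosyltransferases, which attach sugars to small molecules, split into 6 lower and 2 higher of 65. UGT72E1 and UGT72E2, which glycosylate lignin precursors, were among the lower ones, with log2 fold changes of -1.34 (SE 0.297) and -1.47 (SE 0.287). The called genes of the phenylpropanoid list, which does not hold these 2, were all higher. Chitinase family genes also split, with AT3G47540 and AT4G01700 higher and AT2G43610 lower of 8 tested, and laccases with LAC1 higher and LAC7 lower of 7.

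Proteasome genes showed many small shifts and no call. A log2 fold change above 0 was seen for 21 of 26, beside 5156 of 9986 over all genes. The median was 0.426 (0.157 without replicate a of RB and 0.290 in libraries thinned to equal depth). At an unadjusted p under 0.05, 2 were higher and 0 lower, while edgeR and DESeq2 called 0.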
